A study of Homo sapiens with 6 samples.

Results

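The human mitochondrial genome is a small circular DNA that carries its own rRNAs, tRNAs and a few core subunits of the respiratory chain. All 37 rows of the deposited expression table placed on chromosome MT were taken, out of 61806 rows in all. They comprise 13 protein-coding genes, 2 rRNA genes and 22 tRNA genes, which is the gene content of the human mitochondrial genome. They were measured by bulk poly(A) RNA-seq in HCT116 cells, an established line from a human colorectal carcinoma, grown in McCoy's 5A medium with serum. The control group, si-NC, is labelled wildtype and has 3 libraries. The other group, si-STRIP2, is labelled as a STRIP2 knockdown and also has 3. The names stand for small interfering RNAs, a control and one aimed at STRIP2, whose sequences and time of treatment the labels do not give. Nothing in the labels says whether the numbered libraries are separate cultures, so p-values measure only the spread between these libraries, which may be technical.

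Both strands of mitochondrial DNA are transcribed as long precursors that cover many genes. The tRNAs punctuate most of the other genes, and their excision by endonucleases releases the rRNAs and mRNAs. Because neighbouring genes start from a shared precursor, their different steady levels are attributed largely to processing, polyadenylation and decay. The encoded proteins are subunits of complexes I, III and IV and of ATP synthase (complex V), which are built together with many nuclear-encoded subunits.

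The positions below are on GRCh38 as deposited, and all 37 genes had the same start, end and strand in GENCODE 29. Genes lie almost end to end: 25 of the 36 pairs of neighbours abut or overlap, and the largest gap is 31 bases. MT-ATP8 and MT-ATP6 are read from one shared mRNA and overlap by 46 bases (chrM:8527-8572, plus strand). MT-ND4L and MT-ND4 also share an mRNA and overlap by 7 bases, shown in capitals within the junction (chrM:10757-10779, plus strand). These junctions are shown because the counts of the paired genes did not move together, and because how reads lying over 2 genes were counted is not given in the sources used here.
MT-ATP8/MT-ATP6 overlap: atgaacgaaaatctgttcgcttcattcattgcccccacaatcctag
MT-ND4L/MT-ND4 junction: ccaATGCTAAaactaatcgtccc

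In 6 of the 13 mRNAs the annotated gene ends within a codon, and the poly(A) tail supplies the missing bases of the stop codon. The last 18 bases of 4 annotated protein-coding genes that changed are shown with the last whole or partial codon in capitals. They are MT-CYB (chrM:15870-15887), MT-ND1 (chrM:4245-4262), MT-ND4 (chrM:12120-12137) and MT-CO2 (chrM:8252-8269), all on the plus strand and from GENCODE 29 transcripts. The annotated MT-CO2 gene ends 25 bases before the next gene, MT-TK, so the end shown need not be that of its mRNA.
MT-CYB: aaatactcaaatgggccT
MT-ND1: cattccccctcaaaccTA
MT-ND4: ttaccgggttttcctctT
MT-CO2: cccgtatttaccctaTAG
Of the genes with a partial last codon, 3 rose and 2 fell as a share of mitochondrial counts, and of those with a whole one, 2 rose and 4 fell, so this feature did not separate the directions.

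Total counts ranged from 17184963 to 21721218 per library, and mitochondrial counts from 845004 to 1580466. The targeted gene STRIP2 had 3.19, 3.77 and 3.81 FPKM (counts divided by exonic length and by the library total) in si-NC and 2.71, 2.53 and 2.58 FPKM in si-STRIP2, a log2 fold change of -0.46 (standard error, SE, 0.083, edgeR adjusted p = 1.62e-05). The epithelial list summed to 2188 to 2243 CPM (counts scaled to the library total) in si-NC and 1980 to 2040 in si-STRIP2, without overlap, and its part in the results was not tested. Of its 7 genes, EPCAM, KRT8 and KRT18 had at least 7828 counts in every library. CDH1 had 4632, 3992 and 3837 counts in si-NC and 2737, 2550 and 2569 in si-STRIP2. CDX2 had 133 to 216 counts, KRT20 at most 29 and VIL1 at most 3. The fibroblast list summed to 19.5 to 23.5 CPM in si-NC and 17.2 to 19.6 in si-STRIP2, nearly all from COL1A1, with COL1A2 at 0 and DCN at most 1 count. Leukocyte and endothelial lists summed to at most 0.578 and 1.04 CPM. In bulk RNA, fewer cells of a type and less RNA per cell cannot be told apart.

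The mitochondrial share of a library varied more among control libraries than between the groups. It was 7.28%, 4.88% and 8.88% of all counts in si-NC libraries 1, 2 and 3, and 5.97%, 5.73% and 6.30% in the si-STRIP2 libraries. The si-NC libraries thus lay on both sides of the si-STRIP2 libraries, with si-NC replicate 2 lowest and si-NC replicate 3 highest of all 6. The si-STRIP2 mean was lower by 1.01 percentage points, which the exact permutation test (2-sided) did not separate from the spread (p = 0.5, and this design cannot give a p below 0.1). Without si-NC replicate 2 the difference was -2.08 percentage points, and without si-NC replicate 3 it was -0.077. The 16 genes with enough counts to test moved together in this respect: in each of them the si-NC libraries stood in the order 2, 1, 3 from low to high FPKM.

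**Figure D1:**
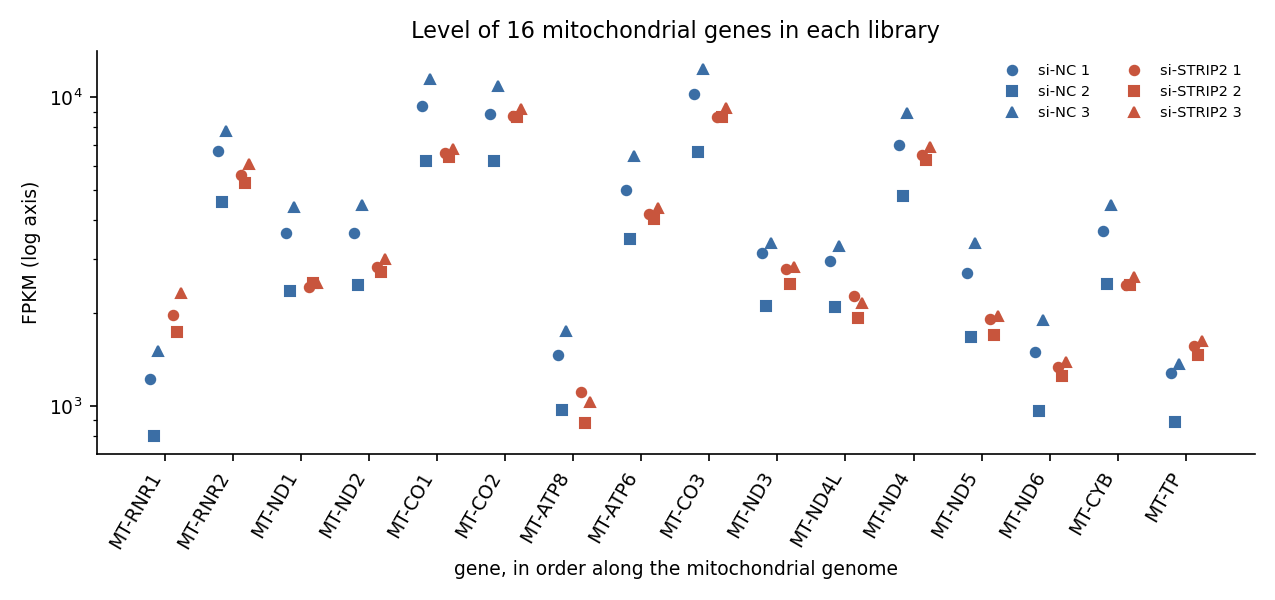
FPKM on a log axis for the 16 tested mitochondrial genes in genome order, 1 point per library (blue si-NC, red si-STRIP2, marker shape for the replicate number). The blue points are spread widely and in the same order in every gene, and MT-RNR1 and MT-TP are the genes whose red points all lie above the blue ones.

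Measured per library, 2 of these 16 genes (MT-RNR1 and MT-TP) had FPKM groups with no overlap, where 59.3% of all genes tested had groups that did not overlap. MT-CO1, the catalytic core of cytochrome c oxidase, had 9386, 6215 and 11468 FPKM in si-NC and 6632, 6413 and 6813 FPKM in si-STRIP2. MT-CYB, the cytochrome b of complex III, had 3698, 2493 and 4481 FPKM in si-NC and 2476, 2463 and 2626 FPKM in si-STRIP2. In both genes si-NC libraries 1 and 3 were high and si-NC library 2 was close to the si-STRIP2 libraries. The coefficient of variation of FPKM within si-NC ran from 21.6% to 33.0% over the 16 genes, with a median of 28.9%, against a median of 5.14% within si-STRIP2.

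With library totals as the scale, edgeR called 10 of the 16 tested members at an adjusted p under 0.05, 2 higher and 8 lower, where 54.8% of all 15687 genes tested were called, 27.8% higher and 27.0% lower. The median log2 fold change of the members was -0.21, against 0.014 over all genes tested. These calls depended on how the spread was estimated. DESeq2 called 1 member (MT-RNR1, 46.1% of all genes called), with 4 members at an unadjusted p under 0.05. The robust option of edgeR, chosen after seeing the data, called 0 members, with 0 at an unadjusted p under 0.05 (55.4% of all genes called), and the leave-out of si-NC replicate 2 called all 16, 14 of them lower. All 8 members called lower had overlapping groups, so no fall per library is claimed for them.

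Within si-NC, the composition of the mitochondrial RNA was far more repeatable than its total. The total took 7.01% ± 2.01 of library counts in si-NC but 6.00% ± 0.287 in si-STRIP2 (n = 3, SD), where it varied little. As a percentage of mitochondrial counts, the coefficient of variation within si-NC had a median of 2.15% over the 16 genes and a highest value of 8.67%, and within si-STRIP2 a median of 1.86% and a highest value of 9.99%. In si-NC replicate 2, whose mitochondrial total was the lowest, MT-CO1 took 19.6% of mitochondrial counts, beside 19.9% in the other si-NC libraries. The genes were therefore also compared on this scale, in the same whole-table edgeR fit with the summed mitochondrial count as the library size of the mitochondrial rows. Shares have a fixed sum, so a rise of one gene lowers the others by construction.

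On this scale edgeR called 13 of the 16 tested members, 7 higher and 6 lower in si-STRIP2, where 55.1% of all genes tested were called, 28.0% higher and 27.1% lower. The shares of the groups did not overlap for 13 members, where 59.4% of all genes tested had groups that did not overlap. The members higher in si-STRIP2 were MT-RNR1, MT-TP, MT-CO2, MT-ND4, MT-ND3, MT-ND6 and MT-CO3, and those lower were MT-CYB, MT-ND1, MT-ATP8, MT-ND5, MT-CO1 and MT-ND4L. In absolute size, the members' log2 fold changes had a median of 0.20, against 0.26 over all genes tested. Of these calls, 4 rises (MT-RNR1, MT-TP, MT-CO2 and MT-ND4) and all 6 falls were made under each of 13 alternative settings.

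**Figure D2:**
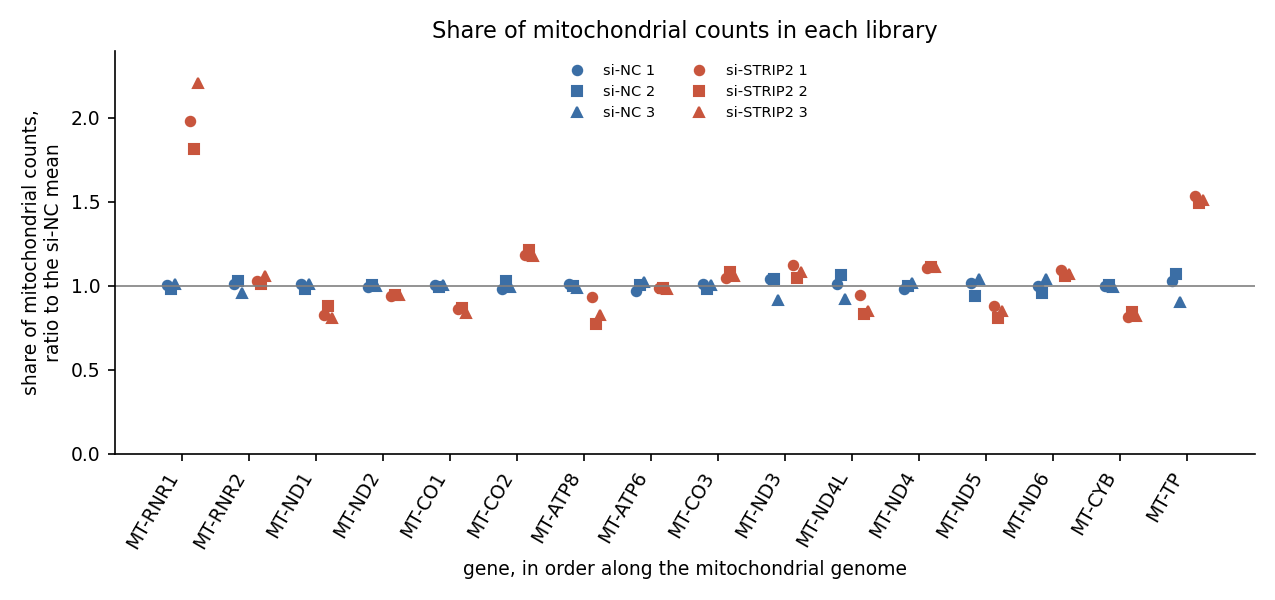
Share of mitochondrial counts for each tested gene, divided by its mean over the si-NC libraries, 1 point per library (blue si-NC, red si-STRIP2). The si-NC points lie close to 1 in all genes, and the si-STRIP2 points of MT-RNR1 and MT-TP lie farthest above 1, with ratios of the group means of 2.00 and 1.51.

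The largest difference was in the rRNA of the small mitochondrial ribosomal subunit. MT-RNR1 (ENSG00000211459, chromosome MT, 648 to 1601, plus strand) made up 1.6%, 1.57% and 1.62% of mitochondrial counts in si-NC and 3.17%, 2.90% and 3.53% in si-STRIP2. Every si-STRIP2 library was higher than every si-NC library by a wide margin. The log2 fold change of the share was 1.00 (SE 0.045, edgeR adjusted p = 2.82e-21), and it stayed between 0.92 and 1.07 under the 13 alternatives. Per library, its FPKM was 1224, 804 and 1505 in si-NC and 1980, 1740 and 2334 in si-STRIP2, so its groups did not overlap on that scale either. The log2 fold change per library was 0.77 (SE 0.111, edgeR adjusted p = 3.97e-07), with an adjusted p of 0.0174 by DESeq2 and 0.0845 with the robust option of edgeR. The ends of the gene, which abut tRNA genes on both sides, are shown for reference (chrM:648-677 and chrM:1572-1601, plus strand).
MT-RNR1 start: aataggtttggtcctagcctttctattagc
MT-RNR1 end: aagtgtactggaaagtgcacttggacgaac

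The rRNA of the large subunit, MT-RNR2, which lies next along the same precursor, was not called. It took 14.4%, 14.6% and 13.6% of mitochondrial counts in si-NC and 14.6%, 14.4% and 15.1% in si-STRIP2, with overlapping groups and a log2 fold change of 0.048 (SE 0.038, edgeR adjusted p = 0.292). For every 100 counts of MT-RNR2 there were 11.2, 10.7 and 11.8 counts of MT-RNR1 in si-NC and 21.7, 20.1 and 23.4 in si-STRIP2, a 1.93-fold higher mean ratio (exact permutation test, 2-sided, p = 0.1, the smallest possible, Benjamini-Hochberg adjusted p = 0.144 over 13 single values). The summed rRNA share was 16%, 16.2% and 15.3% in si-NC and 17.8%, 17.3% and 18.6% in si-STRIP2, with no overlap and means of 15.8% ± 0.491 and 17.9% ± 0.673 (n = 3, SD, exact permutation test, 2-sided, p = 0.1). Mitochondrial rRNAs carry only short adenine tails, and the libraries were made from poly(A) RNA, so the capture of these tails bears on the values; its part in the result was not tested. Nuclear RNAs that lack a poly(A) tail (RN7SL1, RN7SL2, RN7SK, RMRP and RPPH1) were near the floor in both groups: the list summed to 1.21 to 3.04 CPM in si-NC and 1.37 to 1.92 in si-STRIP2, with 3 of the 5 at 0 in every library.

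Of the tRNA genes, 18 of 22 had 0 counts in every library, which allows up to 3 counts, or 0.000355% of the mitochondrial counts in the library where these were fewest (counting error only). Another 3 (MT-TF, MT-TC and MT-TY) had at most 3 counts in any library. The exception was MT-TP, the proline tRNA on the minus strand (chrM:15956-16023), with 1049 to 1997 counts per library. It borders the control region and, like MT-TF at the other end of that region, has no annotated neighbour on one side. Its share of mitochondrial counts was 0.12%, 0.124% and 0.105% in si-NC and 0.178%, 0.173% and 0.175% in si-STRIP2, and every si-STRIP2 library was above every si-NC library. The log2 fold change of the share was 0.60 (SE 0.049, edgeR adjusted p = 1.04e-13). Per library it was 0.39 (SE 0.079, edgeR adjusted p = 9.21e-05). That call was not made by DESeq2 (adjusted p = 0.0855) or by the robust option of edgeR (adjusted p = 0.158). Its gene sequence is shown because it is the only tRNA gene with more than 3 counts in a library.
MT-TP: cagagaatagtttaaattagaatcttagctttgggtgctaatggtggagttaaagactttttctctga

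The genes of complex IV, cytochrome c oxidase, moved in opposite directions. MT-CO1 fell from 19.9%, 19.6% and 19.9% of mitochondrial counts in si-NC to 17.1%, 17.2% and 16.7% in si-STRIP2 (log2 fold change -0.22, SE 0.037, edgeR adjusted p = 2.74e-06). MT-CO2, which holds the copper centre that accepts electrons from cytochrome c, rose from 8.30%, 8.71% and 8.42% to 10.0%, 10.3% and 9.96% (log2 fold change 0.25, SE 0.037, edgeR adjusted p = 2.46e-07). In both genes the groups were clearly apart. There were 240, 226 and 236 counts of MT-CO1 per 100 of MT-CO2 in si-NC and 171, 167 and 167 in si-STRIP2. Per length, MT-CO1 had an FPKM of 9023 ± 2645 and MT-CO2 of 8658 ± 2364 in si-NC (n = 3, SD). In si-STRIP2 they had 6619 ± 200.3 and 8849 ± 292 (n = 3, SD). MT-CO2 thus stood above MT-CO1 in each si-STRIP2 library and in no si-NC library. In si-NC library 2, however, both genes were nearly equal, with 6215 FPKM for MT-CO1 and 6213 for MT-CO2. MT-CO3, a structural subunit, took 11%, 10.7% and 10.9% in si-NC and 11.4%, 11.8% and 11.5% in si-STRIP2, with no overlap. Its log2 fold change was 0.088 (edgeR adjusted p = 0.0408), a call that was lost in 5 of the 13 alternatives, among them the leave-out of si-NC replicate 2 or of any si-STRIP2 library.

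MT-CYB, the only complex III subunit encoded in mitochondria, had the lowest log2 fold change of the 16 shares. MT-ND1, MT-ATP8 and MT-ND5 lay within its SE, however. MT-CYB made up 5.80%, 5.83% and 5.76% of mitochondrial counts in si-NC and 4.73%, 4.90% and 4.75% in si-STRIP2, with no overlap. The log2 fold change was -0.27 (SE 0.036, edgeR adjusted p = 3.40e-08).

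The 7 complex I genes, which encode the membrane arm of NADH dehydrogenase, divided into both directions. MT-ND1 had 4.77%, 4.63% and 4.77% of mitochondrial counts in si-NC and 3.91%, 4.17% and 3.81% in si-STRIP2 (log2 fold change -0.25, SE 0.038, edgeR adjusted p = 4.58e-07). MT-ND5 had 6.72%, 6.23% and 6.88% in si-NC and 5.81%, 5.37% and 5.62% in si-STRIP2 (log2 fold change -0.24, SE 0.040, edgeR adjusted p = 2.72e-06). MT-ND4 instead rose, from 13.3%, 13.6% and 13.8% to 15%, 15.1% and 15.1% (log2 fold change 0.15, SE 0.037, edgeR adjusted p = 0.000571). In these 3 genes the groups did not overlap.

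Among the other complex I genes, MT-ND4L had 1.21%, 1.28% and 1.11% of mitochondrial counts in si-NC and 1.13%, 0.998% and 1.02% in si-STRIP2, with groups that overlapped (log2 fold change -0.19, SE 0.045, edgeR adjusted p = 0.000463). MT-ND3 had 1.49%, 1.5% and 1.32% in si-NC and 1.61%, 1.5% and 1.55% in si-STRIP2 (log2 fold change 0.12, edgeR adjusted p = 0.0187). MT-ND6 had 1.09%, 1.04% and 1.12% in si-NC and 1.18%, 1.14% and 1.16% in si-STRIP2 (log2 fold change 0.10, edgeR adjusted p = 0.0254). In both, the lowest si-STRIP2 library lay just above the highest si-NC library, for MT-ND3 by less than the rounding shown. The call of MT-ND3 was lost without si-NC replicate 3 or si-STRIP2 replicate 1. The call of MT-ND6 was lost in 5 alternatives: the block on replicate number and the leave-outs of si-NC replicate 1, si-NC replicate 2, si-STRIP2 replicate 1 or si-STRIP2 replicate 3. MT-ND2 had 5.2%, 5.28% and 5.25% in si-NC and 4.94%, 4.96% and 4.97% in si-STRIP2, without overlap, but did not pass in edgeR (log2 fold change -0.080, adjusted p = 0.0571), while DESeq2 gave an adjusted p of 0.0108. Over all 7, complex I made up 40.3% ± 0.213 of mitochondrial mRNA counts in si-NC and 40.7% ± 0.417 in si-STRIP2 (n = 3, SD), a difference the exact permutation test (2-sided) did not separate from the spread (p = 0.3). On summed FPKM this difference had the other sign, -0.443 percentage points. Complex III, which is MT-CYB alone, made up 6.91%, 6.96% and 6.80% of mRNA counts in si-NC and 5.77%, 5.94% and 5.85% in si-STRIP2, and complex IV 46.7%, 46.7% and 46.4% against 47.0%, 47.6% and 47.0% (exact permutation test, 2-sided, p = 0.1 for each).

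**Figure D3:**
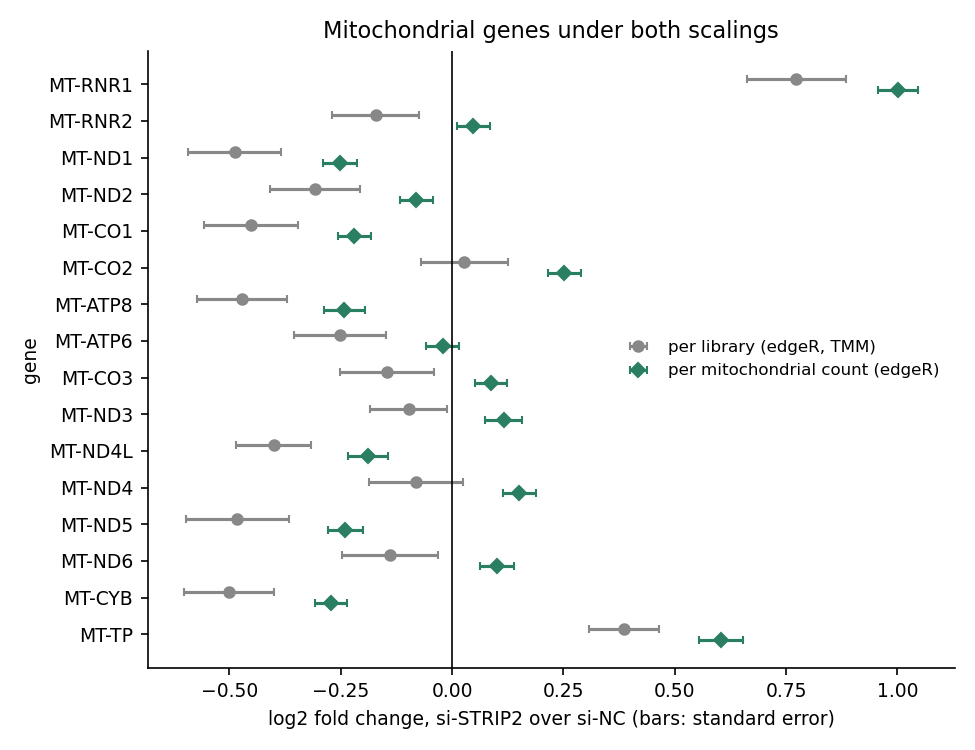
Log2 fold change of si-STRIP2 over si-NC with its standard error for each tested gene, per library (grey circles) and per mitochondrial count (green diamonds). The standard errors were computed from the log2 fold change and the F statistic. The grey values lie to the left of the green ones and have wider bars, and MT-RNR1 is the rightmost on both scales.

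Of the ATP synthase genes, MT-ATP6, the proton channel subunit, took 4.68%, 4.87% and 4.97% of mitochondrial counts in si-NC and 4.78%, 4.79% and 4.74% in si-STRIP2, with overlapping groups and a log2 fold change of -0.021 (edgeR adjusted p = 0.654). MT-ATP8, a small subunit read from the same mRNA, had 0.418%, 0.412% and 0.407% in si-NC and 0.386%, 0.319% and 0.340% in si-STRIP2, without overlap (log2 fold change -0.24, SE 0.046, edgeR adjusted p = 2.37e-05). Genes that share an mRNA thus differed in their counts. For every 100 counts of MT-ATP6 there were 8.93, 8.45 and 8.20 counts of MT-ATP8 in si-NC and 8.07, 6.66 and 7.18 in si-STRIP2. The other shared mRNA gave 9.08, 9.41 and 8.01 counts of MT-ND4L per 100 of MT-ND4 in si-NC and 7.53, 6.63 and 6.76 in si-STRIP2. In both pairs the shorter upstream gene was lower relative to its partner in every si-STRIP2 library (exact permutation test, 2-sided, p = 0.1 for each, Benjamini-Hochberg adjusted p = 0.144 over 13 single values). The ratios were chosen after the values had been seen.

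The light-strand transcript was represented by MT-ND6 and MT-TP, both on the minus strand, and both were called higher as shares, MT-ND6 not in every alternative. Against its heavy-strand neighbour MT-ND5, which it abuts, MT-ND6 had 16.1, 16.7 and 16.3 counts per 100 in si-NC and 20.4, 21.3 and 20.6 in si-STRIP2, a 1.27-fold higher mean with no overlap (exact permutation test, 2-sided, p = 0.1). Between MT-ND5 and MT-CYB, both lower as shares, there were 115.9, 106.9 and 119.6 counts per 100 of MT-CYB in si-NC and 122.7, 109.5 and 118.3 in si-STRIP2, with groups that overlapped (exact permutation test, 2-sided, p = 0.6). The library kit keeps strand, but whether strand was used in counting is not given in the sources used here. Without it, reads from the opposite strand would be counted as MT-ND6 or MT-TP.

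**Figure D4:**
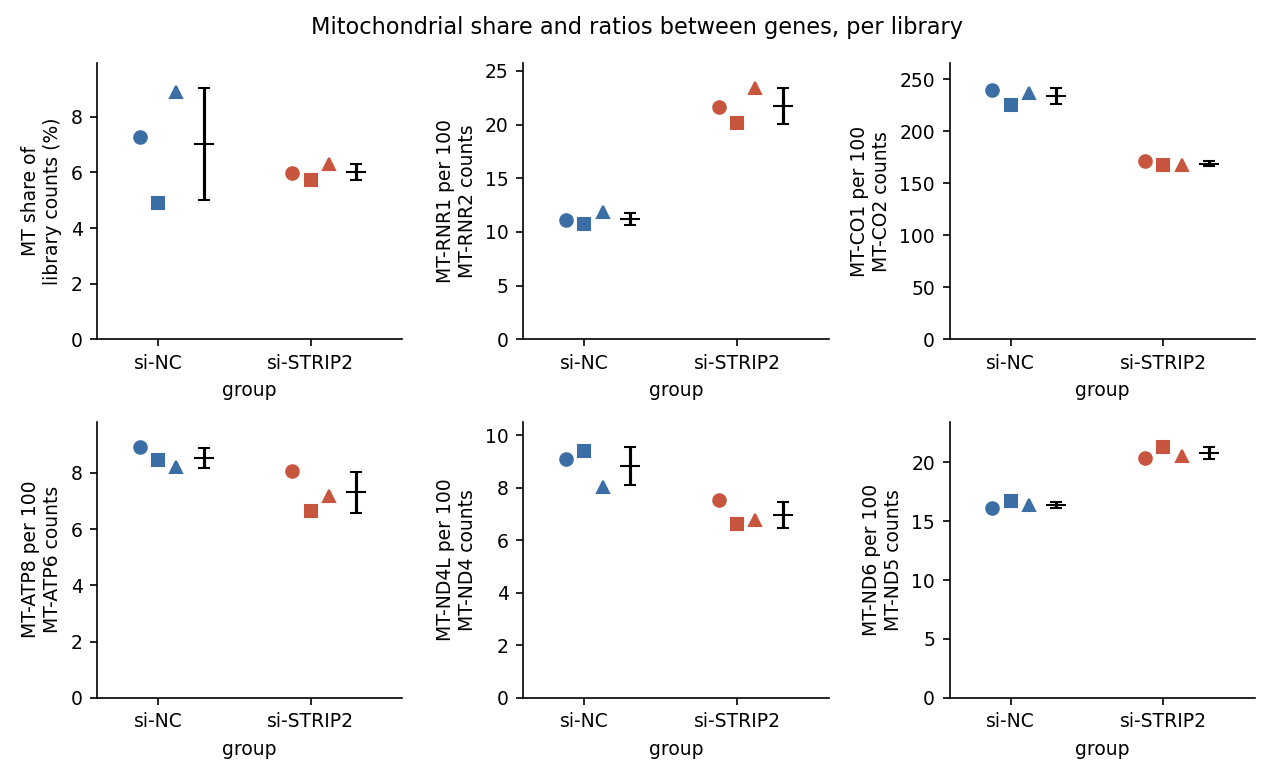
Mitochondrial share of library counts and 5 ratios between mitochondrial genes, 1 point per library, with the mean and SD (n = 3) of each group beside the points. The groups overlap for the mitochondrial share and do not for the 5 ratios shown; the ratio of MT-ND5 to MT-CYB, whose groups overlap, is not drawn.

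The changes were set against position, length, base composition and level. Across the 15 mRNA and rRNA genes, Spearman's rho of the log2 fold change per mitochondrial count was -0.164 with start position, -0.161 with length, -0.179 with GC content (39.6% to 47.7%) and 0.1 with mean FPKM in si-NC. Over the 13 mRNA genes alone it was 0.0604 with start position, -0.192 with length, -0.264 with GC content and 0.319 with mean FPKM. These are descriptions across genes that share precursors and libraries. The top 4 mRNAs per length, by mean FPKM, were MT-CO3, MT-CO1, MT-CO2 and MT-ND4 in si-NC and MT-CO2, MT-CO3, MT-CO1 and MT-ND4 in si-STRIP2. The si-STRIP2 means of MT-CO2 and MT-CO3 were nearly equal (8849 and 8844 FPKM), and in si-STRIP2 library 3 MT-CO3 was the higher. MT-CYB, MT-ND2, MT-ND1 and MT-ND3 followed MT-ATP6 in that order in si-NC, and in si-STRIP2 the order was MT-ND2, MT-ND3, MT-CYB and MT-ND1. MT-ND4L, MT-ND5, MT-ND6 and MT-ATP8 stood last in both groups, with MT-ATP8 6.98-fold and 8.76-fold below the highest.

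Nuclear DNA holds many old copies of mitochondrial genes, whose reads can be hard to assign. Of 402 such copies matched by symbol, 2 held more than 1% of the counts of their parent. The match found 0 copies of MT-RNR1 and of MT-RNR2, so it gives no information on the rRNA genes. MTATP6P1 (GRCh38, chromosome 1, 633696 to 634376) held 9.15%, 9.11% and 10.1% as many counts as MT-ATP6 in si-NC and 9.59%, 9.13% and 9.68% in si-STRIP2, with overlapping groups. MTND2P28 (chromosome 1, 629640 to 630683) held 4.85%, 4.88% and 4.6% as many as MT-ND2 in si-NC and 4.10%, 4.42% and 3.87% in si-STRIP2, without overlap. Copies of MT-CO1 held 0.268% of its counts, and those of the other 10 mRNA genes at most 0.0254%. How reads matching both a copy and its parent were counted is not given in the sources used here. These percentages therefore set no limit on the uncertainty of MT-ATP6, MT-ND2 or the other genes.

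The nuclear genes that maintain, transcribe and process mitochondrial RNA were more often called higher than lower in si-STRIP2. Of 23 tested genes of mitochondrial DNA maintenance and transcription, edgeR called 15 higher and 2 lower (RNASEH1 and PRIMPOL). Of all genes tested, 54.8% were called, 27.8% higher and 27.0% lower. The list had a median log2 fold change of 0.29, against 0.014 over all genes tested. Genes called lower in this and the following lists were named after their values were seen. POLRMT, the mitochondrial RNA polymerase, rose from 4.17, 4.05 and 4.14 FPKM to 7.60, 8.52 and 7.08 FPKM, with every si-STRIP2 library above every si-NC library (log2 fold change 0.90, SE 0.070, edgeR adjusted p = 4.36e-13). MTERF3, a factor that binds mitochondrial DNA and is needed for ribosome assembly, rose by 0.69 (edgeR adjusted p = 6.20e-12). TFAM, which packages mitochondrial DNA and opens its promoters, had 22 ± 0.541 and 21.5 ± 0.212 FPKM (n = 3, SD) and a log2 fold change of -0.031 (edgeR adjusted p = 0.546).

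Of 39 tested genes of mitochondrial RNA processing and stability, 24 were called higher and 4 lower (PNPT1, GRSF1, PTCD2 and MTO1), with a median of 0.24, where 27.8% of all genes tested were called higher and 27.0% lower. ELAC2, the endonuclease that cuts at the ends of tRNAs, had 8.84, 8.64 and 9.54 FPKM in si-NC and 14.2, 15.5 and 14.5 FPKM in si-STRIP2 (log2 fold change 0.71, edgeR adjusted p = 1.72e-14). The gene ARHGAP44 overlaps it with 15.1% as many counts. RPUSD4, a pseudouridine synthase, rose by 0.75 (edgeR adjusted p = 2.28e-12). LRPPRC, which stabilises mitochondrial mRNAs, rose from 15.3 ± 0.594 to 18.3 ± 0.275 FPKM (n = 3, SD, log2 fold change 0.26, edgeR adjusted p = 2.90e-06). Its partner SLIRP (0.13, edgeR adjusted p = 0.0904) and the poly(A) polymerase MTPAP (0.063, edgeR adjusted p = 0.261) did not pass, and genes overlapping SLIRP held 384% as many counts.

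Of the nuclear-encoded partners of the mitochondrial proteins, more genes were called higher than lower. Of 75 tested nuclear subunits of complexes I, III, IV and ATP synthase, 54 were called higher, 1 lower (NDUFS4) and 20 not called, with a median log2 fold change of 0.28, where 27.8% of all genes tested were called higher and 27.0% lower. By complex, the calls were 25 higher of 37 for complex I, 7 of 9 for complex III, 9 of 11 for complex IV and 13 of 18 for ATP synthase. UQCRC2, a core subunit of complex III, rose from 33.0 ± 0.779 to 49.0 ± 0.901 FPKM (n = 3, SD, log2 fold change 0.57, edgeR adjusted p = 7.36e-14). ATP5MC1, which encodes the ring subunit of ATP synthase, rose by 0.89 (edgeR adjusted p = 4.72e-17). The gene SUMO2P17 overlaps it with 11.6% as many counts. Of 77 mitoribosomal proteins, 44 were called higher, 6 lower and 27 not called, with a median of 0.17, against the same 27.8% higher and 27.0% lower over all genes.

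Mitochondrial translation factors and regulators of biogenesis had medians near that of all genes tested. Of 19 mitochondrial translation factors, 5 were called higher, 3 lower and 11 not called (median -0.019), where 54.8% of all genes tested were called. TUFM, the elongation factor that delivers tRNAs to the mitochondrial ribosome, rose from 75.0, 74.8 and 73.6 FPKM to 128, 130 and 121 FPKM (log2 fold change 0.76, edgeR adjusted p = 3.38e-17). Of 10 tested regulators of mitochondrial biogenesis, 3 were called higher, 3 lower and 4 not called (median -0.017), against the same 54.8% of all genes. The subunits of the GA-binding protein were both lower, GABPA with a log2 fold change of -0.30 (edgeR adjusted p = 1.70e-06) and GABPB1 with -0.30 (edgeR adjusted p = 3.99e-05), with overlapping genes at 73.5% and 206% of their counts.

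**Figure D5:**
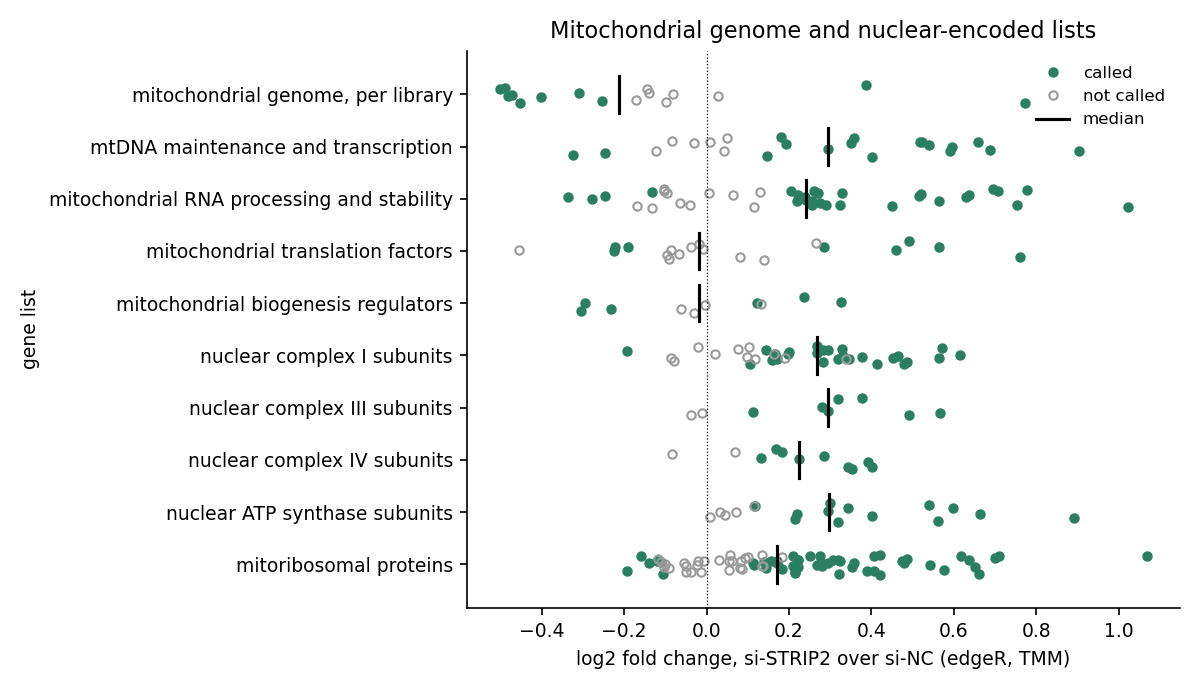
Log2 fold change per library for the tested mitochondrial genes and for each nuclear-encoded list, 1 point per gene, filled where edgeR called it, with the median as a bar. The lists of nuclear respiratory subunits have medians from 0.22 to 0.30, and the mitochondrial genes have a median of -0.21 with calls that depend on the test.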

How the data were processed

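The 3 si-NC and 3 si-STRIP2 libraries were compared. The authors deposited whole-number counts and FPKM per gene, per the file headers. The deposited FPKM differed from the value given by count, exonic size and library total by at most 0.005. The submitters' processing notes name cutadapt 1.9.1, HISAT2 2.2.1, HTSeq 0.6.1 and GRCh38.p13; the use of strand and the treatment of reads with several matches are not given in the sources used here. Counts were tested in R 4.3.3 with edgeR 4.0.16 (filterByExpr, minimum count 10; TMM; quasi-likelihood F test; Benjamini-Hochberg adjustment over 15687 genes; called under 0.05). For the second scale, the offset of mitochondrial rows was the log of the summed mitochondrial count. Of the 37 members, 16 passed the filter. Alternatives included DESeq2 1.42.0, no filter, a replicate block, other scalings and the leave-out of each library.

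Single values were compared by exact permutation. Members, lists and the rule for named genes (all mitochondrial genes; TFAM, POLRMT, LRPPRC, SLIRP and MTPAP; among the 3 called members of each list with the smallest adjusted p; STRIP2; nuclear copies above 1% of their parent) were chosen with earlier results of these data known. In simulated counts for this comparison over 15614 genes, with the mitochondrial totals of the real libraries, both planted mitochondrial changes were called on each scale. Of 14 unplanted mitochondrial genes, 2 were called per library and 0 per mitochondrial count. Each unplanted mitochondrial gene was drawn as a fixed share of the mitochondrial total, with the same spread for all genes. That setting favoured the second scale, so the difference between the scales gives it no support. With no change planted, 0 mitochondrial genes were called on either scale. Nuclear genes planted at 1.5-fold and 2-fold were recovered at 80.7% and 89.4%.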

Additional observations from a re-analysis of the deposited data

How the results depend on the processing

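Per library, 10 mitochondrial genes were called as reported, 1 by DESeq2, 0 with the robust option of edgeR (added after seeing the data) and 8 to 16 with 1 library left out. The highest number came without si-NC replicate 2. Per mitochondrial count, 13 were called as reported, 10 to 13 with 1 library left out and 11 to 14 under the other settings; 10 genes kept their call under all 13 alternatives. The difference in the complex I share of mitochondrial mRNA was 0.433 percentage points on counts and -0.443 on summed FPKM. The mitochondrial share of the library differed by -2.08 to -0.077 percentage points with 1 library left out. The rRNA share differed by 1.72 to 2.38 and the complex I share by 0.298 to 0.673. The nuclear lists had 164 calls as reported and 150 to 162 with 1 library left out.

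Some log2 fold changes per library turned their direction. Leaving out each library in turn gave -0.36 to 0.059 for MT-CO3, -0.28 to 0.030 for MT-ND3, -0.29 to 0.14 for MT-ND4, -0.37 to 0.093 for MT-ND6 and -0.17 to 0.23 for MT-CO2. The lowest of each came without si-NC replicate 2 and the highest without si-NC replicate 3, and for MT-CO2 both ends passed the test (adjusted p = 0.0185 and 0.00848, edgeR); without si-STRIP2 replicate 3 it was -0.0064. MT-ATP6 was 0.016 per count of mitochondrial mRNA, which did not pass. The complex V share differed by -0.084 to 0.050 percentage points and MT-ND5 counts relative to those of MT-CYB by -0.907 to 6.39 with 1 library left out. The cause was not tested.

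Same-numbered libraries showed no shared deviation from their group means, with correlations of -0.085, -0.013 and -0.071. Differently numbered libraries gave -0.040 to 0.112. With 3 libraries per group, these values cannot show whether the numbers pair the libraries. With the replicate block, 10 genes were called per library, 11 per mitochondrial count and 158 in the nuclear lists. The blocked differences were -1.01 (sign-flip p = 0.5), 2.08 (p = 0.25) and 0.433 (p = 0.25) percentage points for the mitochondrial, rRNA and complex I shares, by an exact test whose smallest p is 0.25. The 16 tested genes had at least 1049 counts in each library. For the tRNA genes at 0, counting error alone allows up to 3 counts. Depth, the capture of short RNAs without tails and the counting of reads over neighbouring genes cannot be told apart there.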
